A study of Mus musculus with 16 samples.

Results

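PPAR-alpha and fasting response genes were followed across the 4 groups of a kidney RNA-seq experiment. The set was 8 genes, chosen by symbol with earlier results of these data known, as were the gene lists used below: Pdk4, Angptl4, Cpt1a, Vnn1, Lpl, Plin2, Cd36 and Ppara. Each matched 1 of the 52338 rows of the count table, and all 8 passed the filter on low counts that left 17731 genes to test. The kidneys came from C57BL6 mice that had received FAN or vehicle. FAN is an abbreviation that GEO's labels leave unexplained, although headers in the deposited file include the word folic. All mice ate a high-fat diet, with access either limited in time or at will, and the tissue was taken on day 15. The groups were FAN time-restricted, FAN ad libitum, vehicle time-restricted and vehicle ad libitum, with 4 libraries in each. The agent's dose, the hours of food access, the clock time of tissue collection, and the sex and age of the mice are not given in the sources used here.

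PPAR-alpha is a nuclear receptor that binds fatty acids and their derivatives and works as a heterodimer with a retinoid X receptor. During fasting, fatty acids released from fat tissue reach liver, heart, muscle and kidney, and the receptor then raises genes for the uptake, transport and burning of fat. Kidney proximal tubule cells draw most of their energy from fatty acids, and several of these genes are also raised there by other signals of the fasted state, among them glucocorticoids and FOXO factors. In the set, Ppara encodes the receptor itself. Cd36 and Lpl serve fatty acid supply, Plin2 serves storage, Cpt1a serves mitochondrial entry, Pdk4 and Angptl4 are switches of fuel use, and Vnn1 encodes an enzyme of pantetheine breakdown that is a known PPAR-alpha target in mouse liver.

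The reference sequence before the start sites of Plin2 and Cd36 is shown because these members alone, among the 5 with a promoter in the RefSeq table (GRCm38.p6), hold a close match to the direct repeat DR1 that PPAR-alpha binds as a heterodimer. The letters searched were AGGTCANAGGTCA on both strands, from 250 bases before to 50 after the start, allowing 2 mismatches in the 12 fixed letters. Of 32851 promoters 3.86% hold such a match. The match is in capitals and lies on the opposite strand to the gene, 225 bases before the start site of Plin2 (chr4:86670248-86670308, minus strand) and 63 bases before that of Cd36 (chr5:17835923-17835983, minus strand). A single start site per gene was searched. That of Cd36 lies well inside the gene's span (17781690 to 17888801, minus strand), and its other start sites were not searched.
Plin2: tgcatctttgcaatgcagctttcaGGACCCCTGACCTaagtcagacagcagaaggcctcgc
Cd36: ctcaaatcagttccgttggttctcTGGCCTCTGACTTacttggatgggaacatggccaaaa
The closest match in Pdk4, Cpt1a and Ppara had 4 mismatches. Angptl4, Vnn1 and Lpl had no promoter among those searched, so their sequences were not examined. The DR1 contains the half-site AGGTCA, which Cpt1a, Plin2 and Cd36 hold in full (16.3% of promoters). The E-box CACGTG is in Plin2 (7.15%), and the FOXO motif GTAAACA is in none of the 5 (3.65%). These matches are descriptions of letters in a window and not of binding.

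Levels are given as CPM, counts scaled to library size with TMM, a factor that corrects for differences in RNA composition between libraries. Changes are log2 ratios from edgeR's quasi-likelihood test over all 17731 genes, with Benjamini-Hochberg adjusted p and a threshold of 0.05. Total counts were 12450812 to 28255417 in FAN time-restricted, 19266923 to 33035197 in FAN ad libitum, 14124323 to 31699747 in vehicle time-restricted and 18788303 to 33976660 in vehicle ad libitum libraries. The TMM factors of FAN ad libitum libraries (1.32 to 1.53) stood apart from those of the other 12 libraries (0.816 to 0.975). Mitochondrial genome transcripts took 6.94% to 14.8% of counts in FAN ad libitum libraries and 17.2% to 26.7% in the others. Headers of the table also hold a running number preceded by S, called the position number here, and what it numbers is not stated. It falls into 3 separate runs: the earliest holds libraries of all 4 groups (FAN time-restricted 6, FAN ad libitum 6 and 7, and vehicle 1 and 2 of both regimens), and of the later runs one holds only vehicle and the other only FAN libraries. FAN ad libitum libraries split by run: mitochondrial counts were 7.29% and 6.94% in libraries 6 and 7, and 14.8% and 12.1% in libraries 10 and 12. The chi-square of counts per gene was 20.7 between 6 and 7 and 26.7 between 10 and 12, against 146 to 155 for pairs across the runs. In the other groups this measure did not set pairs within a run apart from pairs across runs. Vehicle ad libitum pairs measured 86.02 and 18.4 within a run and 20.5 to 70.2 across runs. Vehicle time-restricted pairs measured 51.8 and 24.4 within a run and 21.1 to 42.1 across runs. FAN time-restricted pairs measured 24.97 to 48.6 within a run and 21.5 to 62.6 across runs. FAN libraries are named by the number in their column.

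The position of the genes relative to one another differed between groups when levels were divided by exon length (RPKM, TMM-scaled CPM per kilobase of exon, mean ± SD, n = 4). In FAN ad libitum kidneys the order was Plin2 (36.2 ± 4.37 RPKM), Angptl4 (35.9 ± 8.41), Cd36 (33.8 ± 2.69), Cpt1a (27.9 ± 6.82), Vnn1 (21.9 ± 5.53), Pdk4 (21.8 ± 9.07), Lpl (16.8 ± 5.27) and Ppara (2.53 ± 1.39). In vehicle ad libitum kidneys it was Cd36 (122 ± 12.1 RPKM), Lpl (113 ± 54.6), Vnn1 (63.5 ± 5.96), Cpt1a (42.8 ± 4.24), Plin2 (38.1 ± 3.34), Angptl4 (36.6 ± 7.37), Pdk4 (6.77 ± 1.61) and Ppara (2.497 ± 1.02). The intervals of mean ± SD of neighbours in these orders overlapped in FAN ad libitum kidneys except between Lpl and Ppara. In vehicle ad libitum kidneys they were separate between Vnn1 and Cpt1a, between Angptl4 and Pdk4 and between Pdk4 and Ppara. In FAN time-restricted kidneys Cd36 (113 ± 34.8 RPKM), Vnn1 (96.6 ± 22.3), Lpl (96.3 ± 31.5) and Pdk4 (94.8 ± 35.4) led with no separation among them. In vehicle time-restricted kidneys Lpl (203 ± 20.4 RPKM) and Cd36 (159.6 ± 46.1) led, and Pdk4 stood at 26.3 ± 10.6.

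**Figure D1:**
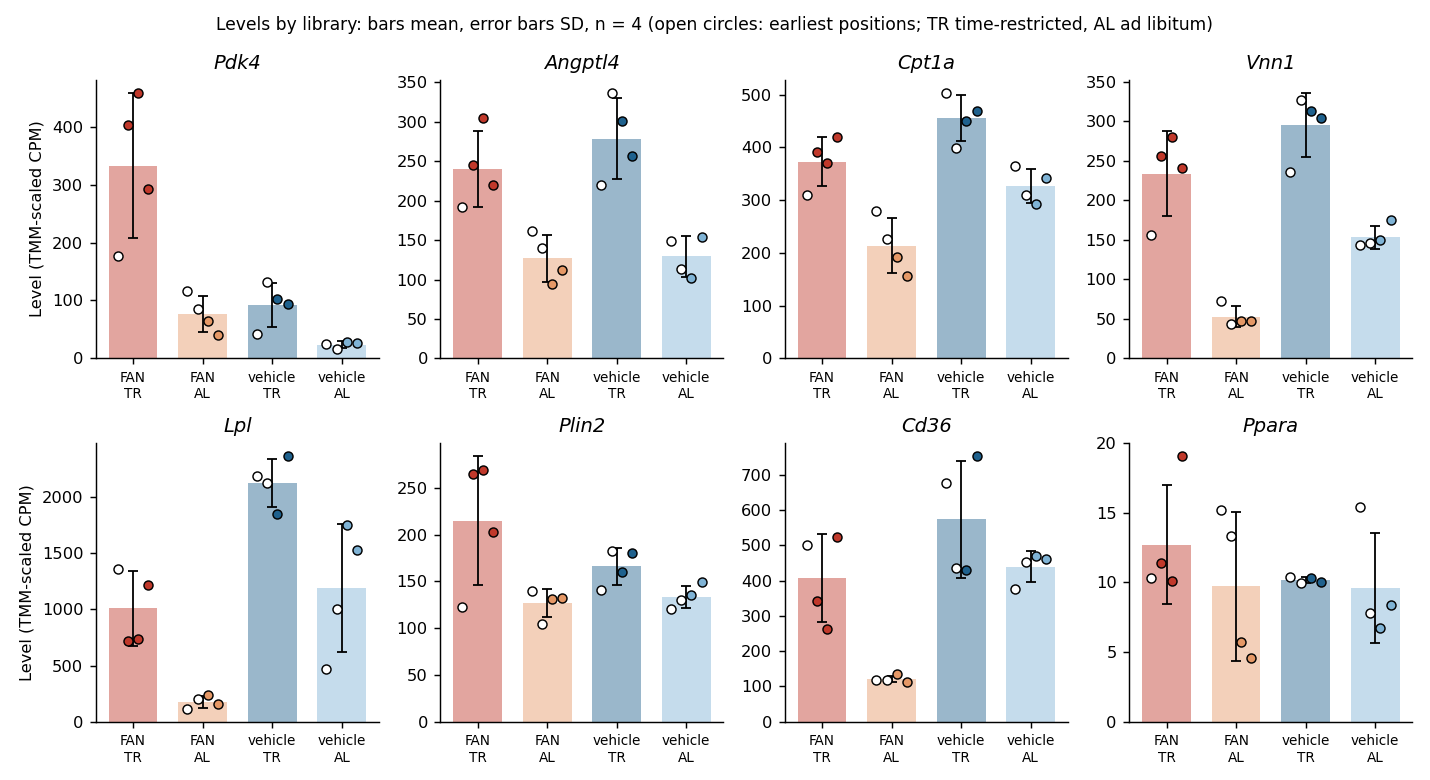
TMM-scaled CPM of the 8 genes (vertical axes, from 0) in each library, with groups along the horizontal axes (TR, time-restricted; AL, ad libitum). Bars are means and error bars SD of 4 libraries, and open circles are the libraries of the earliest positions; Pdk4 is highest in FAN time-restricted kidneys, and Lpl and Cd36 are lowest in FAN ad libitum kidneys.

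Time-restricted feeding was accompanied by higher levels of 7 of the 8 genes in FAN kidneys, against 17.9% of all genes called higher in that comparison (31.8% in either direction). Lpl, Vnn1, Pdk4 and Cd36 showed the largest differences, and Ppara did not pass the test. No gene of the set was called lower, against 13.9% of all genes. In 6 of the 8 every time-restricted value lay above every ad libitum value, against 15.7% of all genes, and in none did every value lie below (12.3% of all genes). The median log2 change of the set was 1.33, and that of all genes was -0.02. With library sizes in place of TMM factors the median of all genes was -0.67, and 4 of the 8 genes (Pdk4, Vnn1, Lpl and Cd36) were called higher. Of all genes 5.58% were then called higher and 64.9% in either direction.

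Pdk4, which encodes the kinase that shuts off pyruvate dehydrogenase and so spares glucose (ENSMUSG00000019577, GRCm38 chromosome 6, 5483351 to 5496309, minus strand), measured 178, 403, 458 and 293 CPM in FAN time-restricted libraries 6, 10, 11 and 12. It measured 116, 85.1, 65.3 and 40.5 CPM in FAN ad libitum libraries 6, 7, 10 and 12. The groups did not overlap, and time-restricted library 6 was the lowest of its group. The log2 change was 2.12 ± 0.37 (SE, adjusted p = 0.000559), a 4.34-fold difference.

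Angptl4, which encodes a secreted inhibitor of lipoprotein lipase (ENSMUSG00000002289, chromosome 17, 33773750 to 33781830, minus strand), measured 192, 246, 304.9 and 220.4 CPM in FAN time-restricted and 162, 139, 94.3 and 112 CPM in FAN ad libitum libraries, in the same library order. Every time-restricted value lay above every ad libitum value. Its log2 change was 0.92 ± 0.19 (adjusted p = 0.00154), and it was 0.28 (adjusted p = 0.256) with library sizes in place of TMM factors.

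Cpt1a, which encodes the carnitine palmitoyltransferase that sets the pace of fatty acid entry into mitochondria (ENSMUSG00000024900, chromosome 19, 3322334 to 3385733, plus strand), measured 310.1, 390.4, 371 and 419 CPM in FAN time-restricted libraries. It measured 279, 226, 192 and 156 CPM in FAN ad libitum libraries. The groups again did not overlap, with FAN ad libitum 6 and FAN time-restricted 6 the nearest pair. The log2 change was 0.81 ± 0.16 (adjusted p = 0.000917), and 0.15 (adjusted p = 0.394) with library sizes.

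Vnn1, which encodes the pantetheinase vanin-1 (ENSMUSG00000037440, chromosome 10, 23894688 to 23905343, plus strand), measured 156, 256, 280.2 and 241 CPM in FAN time-restricted and 72.7, 43.6, 47.7 and 47.4 CPM in FAN ad libitum libraries. The lowest time-restricted library was well above the highest ad libitum library, and FAN ad libitum 6 stood apart from the other 3 of its group. The log2 change was 2.14 ± 0.19 (adjusted p = 3.72e-07), or 4.41-fold. By unadjusted p it ranked 53 of all 17731 genes.

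Lpl, which encodes the lipoprotein lipase that frees fatty acids from circulating triglycerides (ENSMUSG00000015568, chromosome 8, 68880491 to 68907448, plus strand), measured 1358, 715, 739 and 1222 CPM in FAN time-restricted libraries. It measured 109.6, 201.3, 237 and 157 CPM in FAN ad libitum libraries. All 4 time-restricted values were far above all 4 ad libitum values. The log2 change of 2.52 ± 0.34 (adjusted p = 3.41e-05) was the largest of the 8, at 5.72-fold.

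Cd36, which encodes a membrane receptor for long-chain fatty acids that is also found on endothelium and macrophages (ENSMUSG00000002944, chromosome 5, 17781690 to 17888801, minus strand), measured 499, 342, 263 and 522 CPM in FAN time-restricted libraries and 117, 119.6, 135 and 113 CPM in FAN ad libitum libraries. The ad libitum libraries were close together and below all time-restricted ones. The log2 change was 1.74 ± 0.22 (adjusted p = 1.01e-05). Plin2, which encodes the perilipin that coats lipid droplets in most cells (ENSMUSG00000028494, chromosome 4, 86648386 to 86670060, minus strand), measured 122, 265, 269 and 202 CPM in FAN time-restricted and 139.6, 105, 131 and 132 CPM in FAN ad libitum libraries. Here the groups overlapped through time-restricted library 6, while the other 3 time-restricted libraries were above all ad libitum ones. The log2 change of Plin2 was 0.76 ± 0.19 (adjusted p = 0.00516), and 0.13 (adjusted p = 0.581) with library sizes.

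Ppara (ENSMUSG00000022383, chromosome 15, 85734983 to 85802819, plus strand) measured 10.3, 11.4, 10.1 and 19.0 CPM in FAN time-restricted and 15.2, 13.4, 5.76 and 4.59 CPM in FAN ad libitum libraries. Ad libitum libraries 6 and 7 were high and 10 and 12 were low, with time-restricted libraries 6, 10 and 11 between them, so the groups overlapped. The log2 change was 0.37 (95% interval -0.30 to 1.03, adjusted p = 0.434).

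Within the FAN libraries of later position numbers alone, a comparison chosen after seeing the data, all 8 genes were called higher in time-restricted (10, 11 and 12) than in ad libitum kidneys (10 and 12), Ppara included (log2 change 1.38, adjusted p = 0.00625), against 11.8% of all genes called higher. This leaves out the 2 ad libitum libraries with high Ppara. At the earliest positions, where time-restricted library 6 stands alone against ad libitum 6 and 7, only Vnn1 (1.39), Lpl (3.10) and Cd36 (2.05) were called, against 13.7% of all genes called higher, and Pdk4 measured 0.79, Angptl4 0.32 and Cpt1a 0.27. That fit assumes that the lone library varies like the other groups.

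The same feeding comparison in vehicle kidneys called none of the 8 genes, and edgeR called 0 genes of 17731 (0% of all genes, in either direction). At an unadjusted p under 0.05 it held 1143 genes, which is 6.45% of all genes, and 5 of the 8 members. All 8 log2 changes were positive, as were 47.5% of those of all genes. In 5 of the 8 genes every time-restricted value was above every ad libitum value, against 2.85% of all genes, and in none was the reverse so (2% of all genes). DESeq2's Wald test called 57 genes and limma voom with sample weights 35, and each called Pdk4, Angptl4 and Vnn1 among them.

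Angptl4 measured 219.8, 337, 301 and 257 CPM in vehicle time-restricted libraries 1 to 4 and 149, 113, 101.9 and 154 CPM in vehicle ad libitum libraries 1 to 4. Its log2 change was 1.11 ± 0.19, with an unadjusted p of 2.05e-05 that ranked 4 of 17731 and an adjusted p of 0.091 by edgeR. Vnn1 measured 236, 327, 313 and 304.4 CPM in time-restricted and 144, 146, 149 and 175 CPM in ad libitum libraries. Neither gene's groups overlapped. The log2 change of Vnn1 was 0.95 ± 0.18 (rank 8, adjusted p = 0.127 by edgeR).

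Pdk4 measured 41.8, 131, 102.4 and 93.2 CPM in vehicle time-restricted and 23.99, 15.7, 28.1 and 27.3 CPM in vehicle ad libitum libraries. Time-restricted library 1 was the lowest of its group and still above all ad libitum libraries. The log2 change was 1.96 ± 0.38 (rank 11, adjusted p = 0.151 by edgeR).

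Cpt1a measured 503, 399.8, 449.6 and 469 CPM in vehicle time-restricted and 366, 309, 293.5 and 341 CPM in vehicle ad libitum libraries, again without overlap, at a log2 change of 0.48 ± 0.16 (adjusted p = 0.562 by edgeR). Lpl measured 2187, 2122, 1848 and 2363 CPM in time-restricted and 469.6, 1007, 1753 and 1526 CPM in ad libitum libraries. Vehicle ad libitum 1 was the lowest vehicle library for Lpl, and the spread within that group was wide. The log2 change of Lpl was 0.84 ± 0.33 (adjusted p = 0.682 by edgeR). Plin2 (141 to 183 against 121 to 149 CPM), Cd36 (429.95 to 752 against 376 to 469.6 CPM) and Ppara (9.96 to 10.4 against 6.76 to 15.4 CPM) overlapped between vehicle time-restricted and vehicle ad libitum libraries. Their log2 changes were 0.31, 0.38 and 0.08.

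**Figure D2:**
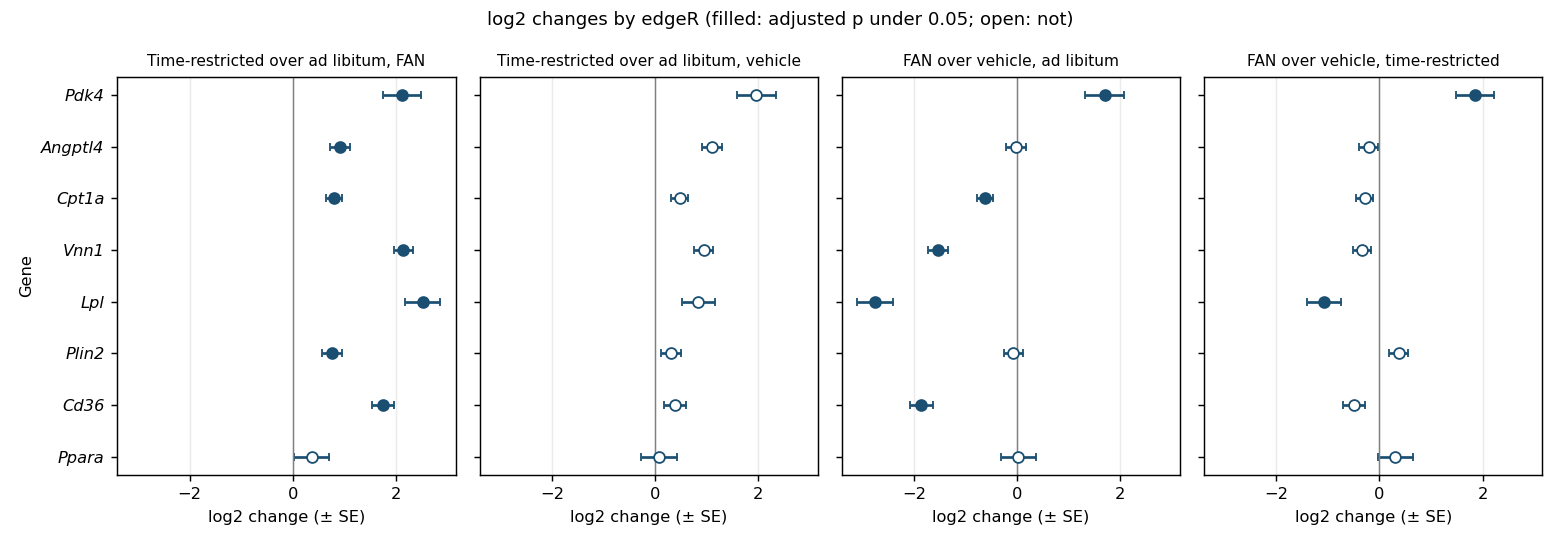
log2 changes (horizontal axes, ± SE) of the 8 genes (rows) in 4 comparisons, filled where adjusted p by edgeR was under 0.05. In FAN kidneys 7 genes are filled for time-restricted over ad libitum feeding, and in vehicle kidneys none is, with Pdk4 at 1.96 and Angptl4 at 1.11.

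Whether the feeding difference was larger in FAN than in vehicle kidneys was tested directly by the interaction, which equals the FAN change under time-restricted feeding minus that under ad libitum feeding. Lpl (1.68 ± 0.46, adjusted p = 0.0293), Cd36 (1.36 ± 0.30, adjusted p = 0.00676) and Vnn1 (1.20 ± 0.26, adjusted p = 0.00602) passed, all positive, so 3 of 8 genes were called higher, against 7.76% of all genes. None was called lower (1.4%), and 9.16% of all genes were called in either direction. Pdk4 and Angptl4 did not pass: their interactions were 0.16 (95% interval -0.85 to 1.17) and -0.18 (-0.71 to 0.35), intervals that leave room for sizeable differences. Those of Cpt1a (0.33), Plin2 (0.45) and Ppara (0.29) did not pass either. At the earliest positions Cd36 was called (1.62), and Vnn1 (0.43, adjusted p = 0.551) and Lpl (1.55, adjusted p = 0.179) were not. The Lpl call was lost with no filter on low counts (1.66, adjusted p = 0.116) and when any of 8 single libraries was left out, with adjusted p between 0.0512 and 0.0671: FAN ad libitum 6 or 12, FAN time-restricted 6 or 12, vehicle ad libitum 3 or 4, or vehicle time-restricted 2 or 3. With library sizes the interactions of Lpl (1.07, adjusted p = 0.066) and Vnn1 (0.60, adjusted p = 0.0871) were not called and that of Cd36 was (0.76, adjusted p = 0.0375), while the median of all genes was -0.57, against 0.02 with TMM factors. That scaling called the interaction of Angptl4 lower (-0.79, adjusted p = 0.0434).

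**Figure D3:**
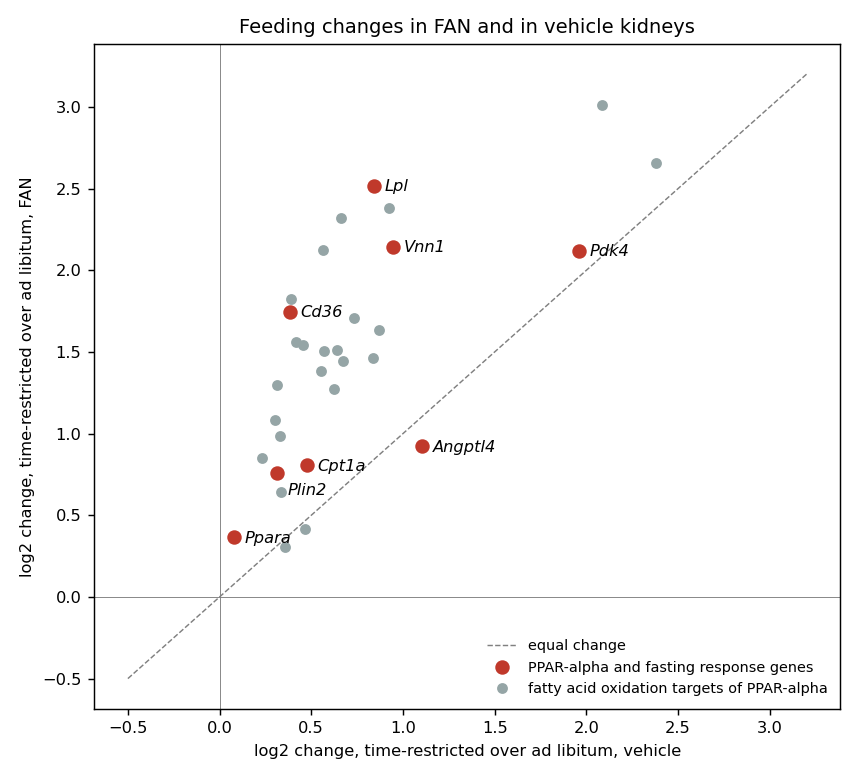
log2 change of time-restricted over ad libitum feeding in FAN kidneys (vertical axis) against that in vehicle kidneys (horizontal axis) for the 8 genes (red) and 23 fatty acid oxidation targets of PPAR-alpha (grey). Pdk4 and Angptl4 lie near the dashed line of equal change, although with library sizes the interaction of Angptl4 is -0.79, and Lpl, Vnn1 and Cd36 lie above it.

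FAN against vehicle split the set. Under ad libitum feeding Pdk4 rose and Cpt1a, Vnn1, Lpl and Cd36 fell, while Angptl4, Plin2 and Ppara did not pass the test. That is 1 gene called higher, against 32.1% of all genes, and 4 called lower, against 28.6%, with 60.7% of all genes called in either direction. A share of 5 in 8 is close to that background. The groups did not overlap for the gene called higher (29% of all genes) or for the 4 called lower (25.9%). The median log2 change of the set was -0.35, and that of all genes was 0.06.

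Lpl averaged 176 ± 55.2 CPM in FAN ad libitum and 1189 ± 572 CPM in vehicle ad libitum kidneys (SD, n = 4 each), a log2 change of -2.75 ± 0.35 (SE, adjusted p = 2.43e-06) or 6.75-fold lower. Cd36 averaged 121 ± 9.66 CPM in FAN ad libitum and 439.6 ± 43.3 CPM in vehicle ad libitum kidneys, at -1.86 ± 0.22 (adjusted p = 7.44e-07). Vnn1 averaged 52.9 ± 13.4 CPM in FAN ad libitum and 153 ± 14.4 CPM in vehicle ad libitum kidneys, at -1.54 ± 0.18 (adjusted p = 1.15e-06). The supply genes Lpl and Cd36 showed the largest falls of the set.

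Cpt1a averaged 213 ± 52.2 CPM in FAN ad libitum and 327 ± 32.4 CPM in vehicle ad libitum kidneys, a log2 change of -0.62 ± 0.16 (adjusted p = 0.00245). With library sizes it was 0.09 (adjusted p = 0.626), where the median of all genes was 0.76. Pdk4 went the other way, with 76.7 ± 31.8 CPM in FAN ad libitum and 23.8 ± 5.67 CPM in vehicle ad libitum kidneys, at 1.69 ± 0.37 (adjusted p = 0.000999). The log2 values of 3 genes missed the threshold: Angptl4 measured -0.03 (95% interval -0.40 to 0.35), Plin2 -0.08 (-0.44 to 0.29) and Ppara 0.02 (-0.64 to 0.68). With library sizes Angptl4 (0.69, adjusted p = 0.00718) and Plin2 (0.62, adjusted p = 0.00923) were called higher.

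Under time-restricted feeding Pdk4 rose in FAN kidneys and Lpl fell, and the other 6 genes did not pass. The background was 24.5% of all genes called higher and 19% called lower (43.5% in either direction). Pdk4 averaged 333 ± 124 CPM in FAN time-restricted and 92.2 ± 37.3 CPM in vehicle time-restricted kidneys (SD, n = 4 each), at a log2 change of 1.85 ± 0.37 (adjusted p = 0.000856). Lpl averaged 1009 ± 330.1 CPM in FAN time-restricted and 2129.9 ± 214 CPM in vehicle time-restricted kidneys, at -1.08 ± 0.33 (adjusted p = 0.0132). Neither gene's groups overlapped, against 22.4% of all genes higher and 17.9% lower without overlap. Both calls were lost at the earliest positions, where FAN time-restricted 6 stands alone (Pdk4 0.97, adjusted p = 0.392; Lpl -0.73, adjusted p = 0.354), and the Lpl call was lost with no filter on low counts (adjusted p = 0.0543).

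The values of the other 6 genes in this comparison were -0.50 for Cd36 (adjusted p = 0.0641), -0.34 for Vnn1 (0.14), -0.29 for Cpt1a (0.148), -0.21 for Angptl4 (0.395), 0.37 for Plin2 (0.119) and 0.31 for Ppara (0.494). Cd36 was called lower with all libraries by DESeq2 (adjusted p = 0.0262), by voom (0.0253), with DESeq2's size factors (0.0408) and with mitochondrial transcripts left out (0.0491), and without FAN time-restricted 6 or 12 or vehicle time-restricted 2 or 3, with adjusted p down to 0.0271. Plin2 was called higher by voom (0.53, adjusted p = 0.00774) and without FAN time-restricted 6 (0.56, adjusted p = 0.00476). The comparisons above share groups: each group's libraries enter a FAN comparison and a feeding comparison.

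Cell type markers differed between the groups as well. The summed level of 8 proximal tubule markers was 4724 to 6068 CPM in FAN time-restricted, 1143 to 2860 in FAN ad libitum, 9367 to 12529 in vehicle time-restricted and 9432 to 10633 in vehicle ad libitum libraries. Of these 8 markers, 6 were called lower in FAN ad libitum than in vehicle ad libitum kidneys, against 28.6% of all genes. In FAN time-restricted against FAN ad libitum kidneys 6 were called higher, against 17.9% of all genes. None was called between the vehicle groups, where 0% of all genes were called. In FAN time-restricted against vehicle time-restricted kidneys 6 of the 8 markers were called lower, against 19% of all genes. The summed level of 8 macrophage markers was 563 to 1137 CPM in FAN time-restricted, 1067 to 1915 in FAN ad libitum, 81.0 to 122 in vehicle time-restricted and 98.8 to 158 in vehicle ad libitum libraries. Within FAN ad libitum it was 1087 and 1067 CPM in libraries 6 and 7, and 1900 and 1915 CPM in libraries 10 and 12. Of the macrophage markers, 8 of 8 were called higher in FAN ad libitum and 7 of 8 in FAN time-restricted kidneys, each against vehicle of the same regimen. The shares of all genes called higher were 32.1% and 24.5%. In FAN time-restricted against FAN ad libitum kidneys 6 of the 8 macrophage markers were called lower, against 13.9% of all genes. In whole kidney, fewer cells of a type and less RNA per cell cannot be told apart, and the part of these shifts in the results was not tested.

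The summed level of 8 endothelial markers was 271 to 445 CPM in FAN time-restricted, 320 to 357 in FAN ad libitum, 189 to 279 in vehicle time-restricted and 248 to 384 in vehicle ad libitum libraries. Against vehicle, 4 of these 8 were called higher under time-restricted feeding (24.5% of all genes) and 2 under ad libitum feeding (32.1%). Between the FAN groups 0 were called higher (17.9%) and 0 lower (13.9%). With library sizes 5 were called lower there (64.9% of all genes in either direction). The 8 adipocyte markers, of a cell type that also expresses Lpl, Cd36 and Plin2, summed to 105 to 211 CPM in FAN time-restricted, 44.2 to 244 in FAN ad libitum, 64.4 to 932 in vehicle time-restricted and 98.6 to 518 in vehicle ad libitum libraries. The highest adipocyte sum was in vehicle time-restricted 2, whose Plin2 (183 CPM), Pdk4 (131 CPM), Angptl4 (337 CPM) and Vnn1 (327 CPM) were the highest of its group and whose Lpl (2122 CPM) and Cd36 (435 CPM) were not. Without that library the feeding changes in vehicle kidneys were 1.74 for Pdk4, 1.002 for Angptl4 and 0.89 for Vnn1. Adipocyte sums in FAN time-restricted libraries 6, 10, 11 and 12 were 196, 113, 105 and 211 CPM. Libraries 6 and 12 also had the higher Lpl (1358 and 1222 CPM) and Cd36 (499 and 522 CPM). Vehicle ad libitum 3 had the highest sum (518 CPM), Lpl (1753 CPM) and Cd36 (469.6 CPM) of its group. FAN ad libitum 6 had the lowest sum (44.2 CPM) and Lpl (109.6 CPM) of its group, but not the lowest Cd36 (117 CPM). The part of adipocyte RNA in these levels was not tested. No marker of the 4 lists was at 0 throughout a group.

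Genes of fatty acid oxidation known as PPAR-alpha targets followed the feeding difference in FAN kidneys. Of 23 tested, 21 rose and none fell in FAN time-restricted against FAN ad libitum kidneys, against 17.9% and 13.9% of all genes. The median log2 change was 1.503, and that of all genes was -0.02. Acot12, an acyl-CoA thioesterase (2.12), and Pex11a, a factor of peroxisome division (1.38), had the smallest p. Acadvl (0.41) and Hadha (0.31) did not pass. In vehicle kidneys edgeR called 0 of the 23, while 23 of 23 values were positive at a median of 0.56 and 19 had an unadjusted p under 0.05. Of all genes 47.5% were positive there and 6.45% had an unadjusted p under 0.05. In FAN ad libitum against vehicle ad libitum kidneys 19 of 23 fell and none rose (median -1.25), against 28.6% and 32.1% of all genes. Among those that fell were Ech1 (-1.92) and the medium-chain acyl-CoA dehydrogenase Acadm (-2.14). In FAN time-restricted against vehicle time-restricted kidneys 9 of 23 were called lower and none higher (median -0.39), against 19% and 24.5% of all genes. With library sizes 7 were called lower there and none higher, against 42.4% of all genes in either direction. The interaction was called for 12 of 23, all positive, against 7.76% of all genes called higher. With library sizes 18 of 23 were called higher and none lower in the FAN feeding comparison. Of all genes 5.58% were then called higher and 64.9% in either direction. In FAN ad libitum against vehicle ad libitum kidneys 12 were called lower and none higher with that scaling. It called 61% of all genes higher there and 72.7% in either direction. In the interaction it called 4 higher and 1 lower, against 2.84% of all genes higher and 37.4% in either direction. At the earliest positions FAN time-restricted 6 stands alone, and 24 genes of the list were tested. Their median log2 change was 0.62 in the FAN feeding comparison (all genes -0.04). In the interaction it was 0.16 (all genes 0.02), against 0.83 with all libraries.

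In the other lists the counts depended on the scaling. With TMM factors they are to be read against 17.9% of all genes called higher and 13.9% lower in the FAN feeding comparison. In FAN ad libitum against vehicle ad libitum kidneys these shares were 32.1% and 28.6%. Of 13 genes of fatty acid uptake and binding, 5 rose and none fell with time-restricted feeding in FAN kidneys, led by the fatty acid transporter and acyl-CoA synthetase Slc27a2 (1.68). In FAN ad libitum against vehicle ad libitum kidneys 3 rose and 3 fell, with Slc27a2 at -2.42 and the acyl-CoA synthetase Acsl4 at 1.49. Of 18 receptors and cofactors, 5 rose and 4 fell with time-restricted feeding in FAN kidneys, Hnf4a, a nuclear receptor of epithelial cells, at 1.07. Of 13 FOXO and glucocorticoid fasting genes 6 rose and none fell, among them the transcription factor Klf15 (1.25) and Igfbp1 (1.68), which encodes a binding protein of insulin-like growth factors. With library sizes 5.58% of all genes were called higher and 64.9% in either direction in the FAN feeding comparison. The calls higher and lower were then 2 and 5 for uptake and 1 and 12 for receptors and cofactors. Those for FOXO and glucocorticoid genes were 4 and 2. The balance of the first 2 lists turned round, as did that of all genes. In FAN ad libitum against vehicle ad libitum kidneys the uptake list then had 7 called higher and 2 lower. Of all genes 61% were called higher there and 72.7% in either direction. Slc27a2, Hnf4a, Klf15 and Igfbp1 were called higher under both scalings.

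Of 9 genes of lipoprotein lipase handling, 3 rose and 1 fell with time-restricted feeding in FAN kidneys, and the one that fell was the endothelial lipase Lipg (-1.82). Of 18 lipid droplet genes 6 rose and none fell, with G0s2, an inhibitor of the triglyceride lipase Pnpla2, at 1.83. Of 12 genes of pyruvate dehydrogenase control 9 rose and none fell, among them Mpc1 (1.41) and Mpc2 (1.21), the subunits of the mitochondrial pyruvate carrier. Of 9 genes of pantetheine and coenzyme A metabolism 6 rose and none fell, led by Pank1 (1.87) and Coasy (1.44), enzymes of coenzyme A synthesis. With library sizes 5.58% of all genes were called higher and 64.9% in either direction. These 4 lists then had fewer calls higher and more calls lower. The calls higher and lower were 0 and 3 for lipoprotein lipase handling and 3 and 4 for lipid droplets. They were 2 and 1 for pyruvate dehydrogenase control, and 2 and 2 for pantetheine and coenzyme A. G0s2, Mpc1, Mpc2, Pank1 and Coasy were called higher and Lipg lower under both scalings. In the order of these 4 lists, FAN against vehicle under ad libitum feeding had 3, 10, 10 and 6 calls lower (28.6% of all genes). Calls higher were 1, 2, 1 and 1 (32.1%). Under time-restricted feeding they were 2, 8, 6 and 6 lower (19%) and 0, 2, 1 and 1 higher (24.5%). With library sizes the ad libitum calls were 1, 4, 4 and 6 lower and 4, 3, 2 and 2 higher. Of all genes 61% were then called higher and 72.7% in either direction. edgeR called 0 genes of the 8 lists between the vehicle groups.

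**Figure D4:**
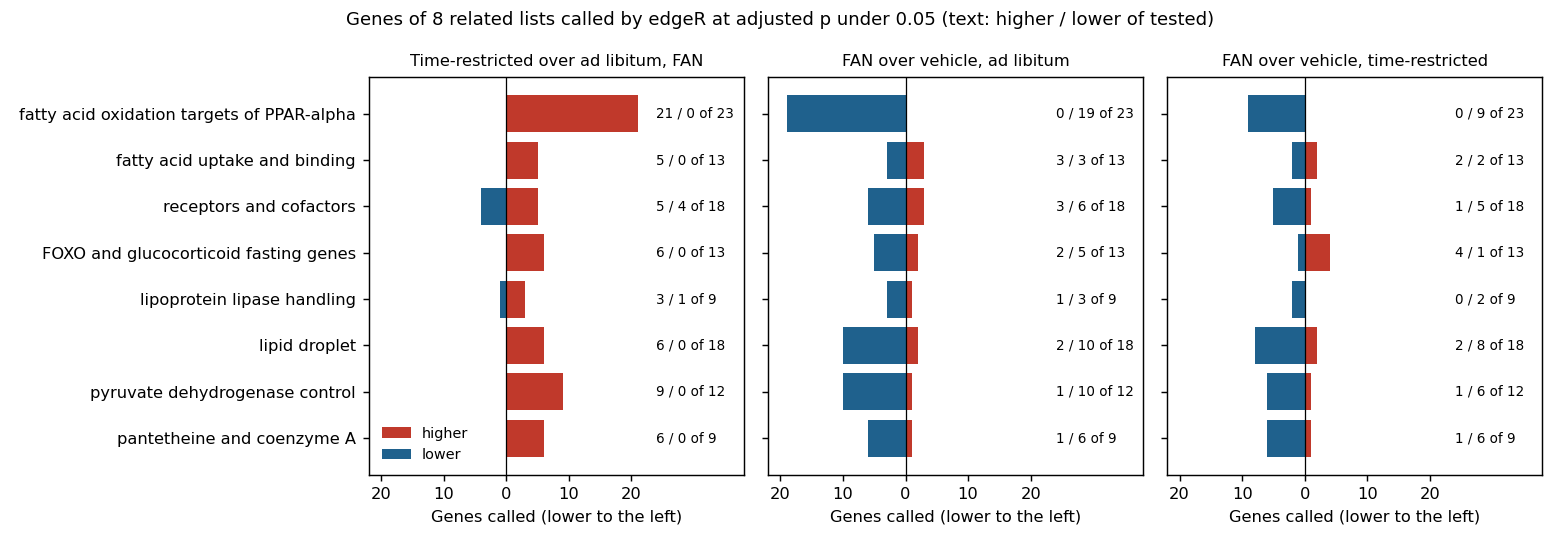
Number of tested genes called higher or lower (horizontal axis) in each of the 8 gene lists (rows), by comparison. The fatty acid oxidation list has 21 of 23 genes higher in FAN time-restricted over FAN ad libitum kidneys (17.9% of all genes). It has 19 of 23 lower in FAN ad libitum over vehicle ad libitum kidneys (28.6% of all genes). With library sizes in place of the TMM factors drawn here these counts are 18 and 12.

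Close relatives of the 8 genes did not all move with them. Pdk2 (-1.35, adjusted p = 0.00176) and Pdk3 (-0.94, adjusted p = 6.03e-06) fell in FAN ad libitum against vehicle ad libitum kidneys, where Pdk4 rose, and Pdk1 measured 0.12. With library sizes Pdk2 (-0.63, adjusted p = 0.0974) and Pdk3 (-0.26, adjusted p = 0.0844) were not called and Pdk1 was called higher (0.81). Plin5, a perilipin of oxidative tissues, rose with time-restricted feeding in FAN kidneys (1.66, adjusted p = 0.00237), and Plin3 measured -0.08 and was called lower with library sizes (-0.72). Cpt2, the partner enzyme of Cpt1a on the inner mitochondrial membrane, rose there as well (1.51, adjusted p = 4.08e-06). Ppard, another receptor of the PPAR family, fell there (-0.88, adjusted p = 0.0424), and Pparg measured -0.55 and was called lower with library sizes (-1.21, adjusted p = 0.0486).

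For each gene, the genes with the most similar pattern over the 16 libraries were found among 11252 genes of at least 5 CPM, as the root mean square difference of centred log2 CPM. The smallest differences were those of Cd36 and Cpt1a, with Agps at 0.142 for Cd36 and Hsd17b4 at 0.144 and Etfdh at 0.149 for Cpt1a. The neighbours of Vnn1 were Ehhadh (0.289), Cpt2 (0.297) and Acot3 (0.324), and those of Lpl were Ces2b (0.370), Mpv17l (0.399) and Slc22a26 (0.425). Those of Angptl4 were Nat8f2 (0.341), Acot2 (0.346) and Spc25 (0.352), of Plin2 Tmem221 (0.242) and Pon2 (0.243), and of Ppara Itpr2 (0.324), Lrig1 (0.331) and Lama3 (0.332). The nearest to Pdk4 was Slc16a1 at 0.945. Among the 8 genes themselves, Angptl4 and Cpt1a were the closest pair (0.374) and Pdk4 and Lpl the farthest (2.01). This measure grows with a gene's own spread, and the SD of log2 CPM over the 16 libraries was 0.60 for Angptl4 and 0.47 for Cpt1a, against 1.48 for Pdk4 and 1.47 for Lpl.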

How the data were processed

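Per the labels' protocols, TRIzol RNA of 16 kidney samples was made into TruSeq Stranded mRNA libraries, 4 in each of 4 groups. The deposited table holds raw counts per gene made by the authors; the tools STAR 2.5.3a, FastQC 0.11.5 and edgeR 3.26.7 and the build mm10 are named in the submitters' processing notes, and their settings are not given in the sources used here. FAN columns were tied to groups by name and vehicle columns to samples by title. Genes were filtered with filterByExpr (minimum count 10), scaled by TMM and tested with edgeR 4.0.16 (R 4.3.3) in 1 quasi-likelihood fit over all 4 groups, with Benjamini-Hochberg adjustment over 17731 genes. DESeq2 1.42.0 and limma 3.58.1 (voom with sample weights) were alternatives. The script was tested on simulated data. The labels list separate samples without saying that they are separate animals, so p-values measure the spread between these samples. The 8 genes, the 8 lists (120 genes) and the markers were chosen with earlier results of these data known. From each list the text names genes with the smallest p in the FAN ad libitum, FAN feeding or interaction comparison, plus relatives of the 8 genes, up to 3 genes most like each of them (1 is not reported here), and the 2 fatty acid oxidation genes that missed the FAN feeding call, named after their values were seen. Standard errors are the log2 change over the root of the F statistic, and 95% intervals are normal. A count of 3 corresponds to 0.0883 to 0.241 CPM, which covers counting error only. Gene positions and exon lengths are from GENCODE M21 (GRCm38), which 52029 of 52338 identifiers matched; coordinates in the deposited table differ from it and were not used.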

Additional observations from a re-analysis of the deposited data

Results flagged for a closer look

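Vnn1 measured 72.7 CPM in FAN ad libitum 6, far from the other 3 libraries of that group (43.6 to 47.7 CPM). Ppara measured 19.0 CPM in FAN time-restricted 12, far from the other 3 (10.1 to 11.4 CPM). Both gaps exceeded Dixon's 95% critical value for 4 samples. In 32 groups of values checked, chance marks about 5% of groups.

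The FAN change differed between feeding regimens by the interaction test for Vnn1 (1.20 on the log2 scale), Lpl (1.68) and Cd36 (1.36). FAN libraries lay closer to vehicle libraries under time-restricted feeding in each case: the FAN change of Cd36 measured -0.50 under time-restricted and -1.86 under ad libitum feeding. The proximal tubule marker interaction was also called higher for 5 of 8 markers, against 7.76% of all genes, and its part in these differences was not tested.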

How the results depend on the processing

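Of the 8 genes, the number called in FAN time-restricted against vehicle time-restricted kidneys was 2, and 4 with voom and 1 with no filter. It was 2 to 4 when single libraries were left out, and 4 without FAN time-restricted 6. In FAN feeding it was 7, and 4 with library sizes and 3 at the earliest positions (7 to 7 when single libraries were left out), with list genes at 66 and 41. Of all genes, 43.5% were called in the first of these comparisons (57.1% with voom and 20.7% with no filter). In FAN feeding 31.8% were called (64.9% with library sizes), and in the interaction 9.16%. In vehicle feeding the number of the 8 genes called was 0, and 3 with DESeq2, 3 with voom and 2 with no filter. It was 0 to 2 when single libraries were left out, and 2 without FAN ad libitum 6. List genes were at 0, and 6 with DESeq2 and 4 with voom. Of all genes 0% were called there, and 0.321% with DESeq2, 0.197% with voom and 0.0179% with no filter. In the interaction it was 3, and 1 at the earliest positions (2 to 3), with list genes at 31 and 12 (21 to 33).

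Signs that reversed were these. FAN ad libitum against vehicle: library sizes Angptl4 0.69, Cpt1a 0.087 and Plin2 0.62; voom Angptl4 0.19; no filter Angptl4 0.0020; position class as covariate Ppara -0.038; earliest positions Angptl4 0.16. FAN time-restricted against vehicle, earliest positions: Plin2 -0.48 and Ppara -0.049. FAN feeding: Ppara -0.31 with library sizes, -0.12 with voom and -0.50 at the earliest positions, where Plin2 was -0.031. Vehicle feeding, earliest positions: Ppara -0.19. Interaction: library sizes Pdk4 -0.45, Cpt1a -0.27, Plin2 -0.14 and Ppara -0.34; voom Ppara -0.32; earliest positions Pdk4 -1.33, Cpt1a -0.15, Plin2 -0.40 and Ppara -0.31. With single libraries left out, the ranges that crossed 0 were, for FAN ad libitum against vehicle, Angptl4 -0.17 to 0.088, Plin2 -0.13 to 0.0075 and Ppara -0.28 to 0.35; for vehicle feeding Ppara -0.055 to 0.41; and for the interaction Pdk4 -0.080 to 0.43 and Ppara -0.043 to 0.58. The cause was not tested.

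Library sizes called 10823 of 12893 genes higher in FAN ad libitum against vehicle (5691 of 10770 with TMM) and 990 of 11502 in FAN feeding (3180 of 5639). Replicate numbers did not pair the samples, with correlations of -0.25 to 0.179. A replicate block called 6 of the 8 genes in FAN feeding (Plin2 0.48, adjusted p = 0.12) and 3400 of all genes. Comparisons by position were chosen after seeing the data and leave FAN time-restricted 6 alone in its group.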

Other observations

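Within the time-restricted libraries Pdk4 and Cd36 split into opposite pairs. In FAN time-restricted libraries 6, 10, 11 and 12 Cd36 measured 499, 342, 263 and 522 CPM where Pdk4 measured 178, 403, 458 and 293 CPM. In vehicle time-restricted libraries 1 to 4 Cd36 measured 676, 435, 429.95 and 752 CPM where Pdk4 measured 41.8, 131, 102.4 and 93.2 CPM. In each time-restricted group the pair of libraries with the higher Cd36 had the lower Pdk4. The ad libitum groups did not show this. In vehicle ad libitum, libraries 3 and 4 had the higher Cd36 (470 and 462 CPM) and also the higher Pdk4 (28.1 and 27.3 CPM). In FAN ad libitum, libraries 7 and 10 had the higher Cd36, and their Pdk4 (85.1 and 65.3 CPM) lay between that of libraries 6 (116 CPM) and 12 (40.5 CPM). The clock time of tissue collection is not given in the sources used here, and no test was made of this split, which was noticed after the values were seen.

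Vnn3, the other vanin gene of the mouse, had 205 counts in all 4 FAN ad libitum libraries together and 10 in the 4 vehicle ad libitum libraries, with some vehicle libraries at 0. It was called higher there by edgeR (adjusted p = 0.000159), where Vnn1 was called lower, and no fold is given because the vehicle level is near the floor. The scavenger receptors Scarb1 (1.73) and Scarb2 (1.43), relatives of Cd36, were also called higher there, where Cd36 was called lower.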
